A study of Mus musculus with 42 samples.

Results

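The genes that copy DNA were followed across every bulk RNA-Seq library of sorted uterine tissue-resident natural killer cells (trNK) and across the single-cell data of the same study. A list of 49 genes was chosen by function, covering the proteins that license, start and run the replication fork and the enzymes that supply deoxynucleotides. All 49 were found among the 54353 genes shared by the bulk tables, and 48 were found in the single-cell data, which do not list Gins4. The list holds 6 genes of the MCM helicase, 6 that activate it, 8 of origin licensing, 4 of polymerase alpha and primase, 5 of polymerases delta and epsilon, 6 of the clamp and its loader, 3 of the single-strand binding protein, 4 of Okazaki fragment maturation, 3 of fork protection and 4 of nucleotide supply.

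In every dividing cell the origin recognition complex (Orc1 to Orc6), Cdc6 and Cdt1 load the ring-shaped MCM helicase (Mcm2 to Mcm7) onto DNA before S phase, and Cdc45 and the GINS complex (Gins1 to Gins4) then turn it into an active helicase. Polymerase alpha with primase starts each strand, polymerases delta and epsilon extend it on the sliding clamp PCNA, and ribonucleotide reductase (Rrm1, Rrm2), thymidylate synthase (Tyms) and thymidine kinase (Tk1) supply the building blocks. Many of these genes are targets of E2F transcription factors and rise as cells enter the cell cycle. Uterine trNK are known to proliferate in the decidua of early pregnancy.

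All cells came from wild-type C57BL/6 mice, females of 8 to 12 weeks by the study's methods. For the gestation series, lymphocytes of the uterus that were CD45+ NK1.1+ NKp46+ CD49a+ and CXCR6- were sorted from virgin mice and on days 6.5 and 8.5 of gestation (gd6.5, gd8.5). For the subsets, the same gate at gd8.5 was divided by CD55 and 4-1BB into low (trNK-V), intermediate (trNK-D) and high (trNK-T) cells. For the inhibitor culture, live NK1.1+ cells from trNK kept for 3 days were collected without IL-21, with 20 ng/ml IL-21, or with 20 ng/ml IL-21 and 1 µM Stattic, a STAT3 inhibitor (iSTAT3). By the study's text these were trNK-V sorted at gd6.5 and kept in medium with IL-15. For the time course, trNK isolated at gd6.5 were held in 10 ng/ml IL-15, alone or with 20 ng/ml IL-21, and labelled 0, 6, 24 or 72 h, and how long the 0 h cells labelled with IL-21 had been exposed to it is not given in the sources used here. These are the doses in the sample labels; the study's methods give another dose of Stattic and the treatment protocol another of IL-15. The single-cell libraries held uterine CD45+NK1.1+NKp46+ cells of virgin and gd8.5 mice. Each of the 17 bulk groups had 2 libraries, and the labels do not say whether these came from separate mice, so the p-values measure only the spread between these libraries.

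Library depth ranged from 11861343 to 66462748 counts over the 34 bulk libraries. The NK receptor gene Ncr1 was present in all of them, at 46.8 to 1030.4 RPKM (reads per kilobase of exon per 1000000 reads). The T cell gene Cd3e did not exceed 6.42 RPKM, but 5 T cell markers together summed to 236 to 743 RPKM. Of these 5, 3 to 5 were above 1 RPKM in both libraries of each group, and their source was not tested. Several libraries stood apart from their partner. The granzyme gene Gzmb read 173 RPKM in the first virgin replicate against 8742 in the second, the plasma cell gene Jchain was at 1698 RPKM in trNK-D replicate 2, and the haemoglobin gene Hba-a1 was at 493 RPKM in gd8.5 replicate 2 and 82.2 in virgin replicate 2. Virgin replicate 1 listed 55573 genes where the other bulk libraries listed 54446. Only shared genes were used, with exon lengths taken from another library. The time course was made with a different library kit from the other bulk experiments, so its levels were not tested against theirs.

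Counts of the 49 genes together came to 3724 and 3968 CPM (counts per 1000000 counts of the library) in virgin trNK, 6965 and 6916 in the gd6.5 libraries, and 5074 and 4052 in the gd8.5 libraries. In the subsets the share was 3305 and 3128 CPM in trNK-V, 3360 and 5345 in trNK-D and 4493 and 5470 in trNK-T. In the 3-day culture it was 3512 and 3436 CPM without IL-21, 2579 and 3488 with IL-21, and 2418 and 1634 with IL-21 and iSTAT3. In the time course without IL-21 it was 5418 and 6144 CPM at 0 h, 6304 and 5820 at 6 h, 4450 and 4076 at 24 h, and 1258 and 1139 at 72 h. With IL-21 the time-course share was 4664 and 6431 CPM at 0 h, 7155 and 7241 at 6 h, 5875 and 5458 at 24 h, and 1652 and 1169 at 72 h. The gd6.5 libraries were thus the highest of those sorted directly from the uterus, and 38 of the 49 genes had their highest mean RPKM of the 6 such groups at gd6.5, a description over the gestation and subset experiments, which were not tested against each other. At the other end, 38 genes had their lowest mean RPKM of the time course at 72 h without IL-21 and 9 at 72 h with IL-21. These counts, and that at gd6.5, were not made over all genes, so they cannot be read as particular to the list. From 24 h to 72 h without IL-21, 26 of the 29 genes of the list tested were lower in both libraries, as were 47.6% of all genes tested. In bulk libraries, fewer dividing cells and less RNA per dividing cell cannot be told apart.

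**Figure D1:**
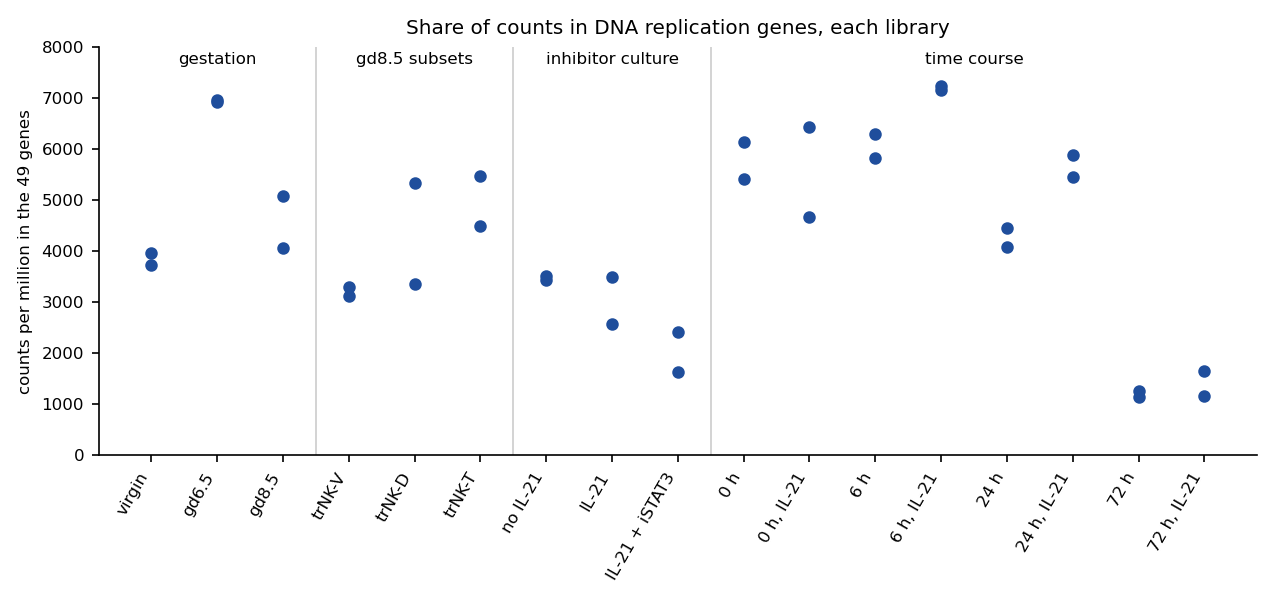
Summed CPM of the 49 replication genes in each of the 34 bulk libraries (y axis, linear from 0), by group, with the 2 replicates of a group as points. The gd6.5 libraries (6965 and 6916 CPM) lie above the virgin ones, and within the time course the 4 libraries of 72 h lie lowest, at 1139 to 1652 CPM.

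The promoters of the genes were read for shared letters. RefSeq promoters of 300 bases, from 250 before to 50 after the start of transcription on build GRCm38.p6, were found for 41 of the 49 genes. A word of the E2F type (the word TTCCCGC, the word TTGGCGC, the word TTGCCGC or the word TTCGCGC, on either strand, overlaps allowed) occurred in 25 of these 41 genes (61%), against 10.9% of the 27025 genes with a promoter and 5 of 28 genes of a mitosis list (17.9%). The word CCAAT, the site of the factor NF-Y, occurred in 24 of the 41 (58.5%), 41.1% of all genes and 78.6% of the mitosis list. TTTGAA, the core of the element that represses late cell cycle genes in resting cells, occurred in 5 of the 41 (12.2%), 20.2% of all genes and 75% of the mitosis list. Median GC content was 60% in the promoters of the replication genes and 52.7% over all promoters. The promoters below belong, among genes tested in all 6 gestation and subset comparisons, to the 3 with an E2F word that had the largest mean absolute log2 change (Mcm5, Rrm2 and Rrm1), and to the one with the smallest (Orc3). Cdc45 moved more than these 3 (0.97) and had no E2F word, and Gins1 moved most (1.59) but had no promoter here. Capitals mark the E2F words and CCAAT.
Mcm5, chr8:75109259-75109558, + strand: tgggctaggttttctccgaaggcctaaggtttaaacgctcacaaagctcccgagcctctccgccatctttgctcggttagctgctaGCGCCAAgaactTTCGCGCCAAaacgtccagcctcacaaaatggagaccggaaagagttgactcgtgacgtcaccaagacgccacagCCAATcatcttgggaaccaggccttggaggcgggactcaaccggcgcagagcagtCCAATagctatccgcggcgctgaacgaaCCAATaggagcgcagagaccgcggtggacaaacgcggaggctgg
Rrm2, chr12:24708004-24708303, + strand: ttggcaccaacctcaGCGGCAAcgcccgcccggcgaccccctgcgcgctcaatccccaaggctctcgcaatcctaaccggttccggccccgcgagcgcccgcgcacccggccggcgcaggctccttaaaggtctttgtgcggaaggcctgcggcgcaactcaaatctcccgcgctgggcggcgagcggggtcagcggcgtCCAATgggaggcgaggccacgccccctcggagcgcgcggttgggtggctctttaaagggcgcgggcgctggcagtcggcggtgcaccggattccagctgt
Rrm1, chr7:102441445-102441744, + strand: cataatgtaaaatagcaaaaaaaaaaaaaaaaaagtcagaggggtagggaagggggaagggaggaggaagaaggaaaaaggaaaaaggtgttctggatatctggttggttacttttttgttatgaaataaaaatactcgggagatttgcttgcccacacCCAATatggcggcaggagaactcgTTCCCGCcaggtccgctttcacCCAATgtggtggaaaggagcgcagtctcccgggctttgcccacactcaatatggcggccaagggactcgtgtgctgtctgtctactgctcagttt
Orc3, chr4:34614893-34615192, - strand: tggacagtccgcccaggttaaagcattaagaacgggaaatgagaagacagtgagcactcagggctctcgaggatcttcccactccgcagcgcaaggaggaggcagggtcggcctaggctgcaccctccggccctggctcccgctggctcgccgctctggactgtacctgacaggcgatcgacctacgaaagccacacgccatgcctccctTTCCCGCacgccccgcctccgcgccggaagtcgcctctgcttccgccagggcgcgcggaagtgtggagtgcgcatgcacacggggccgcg
Mcm5, which encodes an MCM subunit, held 3 E2F words, starting 164, 152 and 149 bases before the start of transcription, the last 2 overlapping, and 3 CCAAT. Rrm2 and Rrm1, the small and large subunits of ribonucleotide reductase, each held 1 E2F word, 235 and 67 bases before the start. Orc3, a subunit of the origin recognition complex, also held 1 E2F word, 40 bases before the start, although its mean absolute log2 change over 6 comparisons was 0.07, against 0.88 for Mcm5. A matching word in this window is a description and not evidence of binding.

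The first comparison asked how the replication genes of trNK changed from the virgin uterus into early pregnancy. At gd6.5, 5 of the 6 MCM helicase genes, the catalytic subunit of polymerase delta and the helicase activator Cdc45 rose above virgin trNK, by 0.90 (Mcm6) to 1.71 (Pold1) on the log2 scale, and by gd8.5 the levels of most were lower again. Genes of the origin recognition complex and the smallest single-strand binding subunit had no change past the threshold. Of the 49 genes, 36 passed the filter on low values (over 10 RPKM in both libraries of any group of the experiment). The 13 that did not pass were Mcm10, Gins3, Orc1, Orc5, Pola1, Prim2, Pole, Pole2, Rfc1, Fen1, Dna2, Timeless and Wdhd1. Among genes given by library below, Gins1, Cdc6, Orc2 and Pold1 passed only through gd6.5, so the filter itself favoured a rise in them. Cdc45 passed only through gd6.5 and gd8.5, so the filter favoured a rise above virgin in it too.

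Of the 36 genes tested at gd6.5 against virgin, 10 rose and none fell by edgeR's quasi-likelihood test (adjusted p under 0.05), where 5.02% of all 4504 genes rose and 9.33% passed in either direction. The median log2 fold change was 0.70 over the 36 genes and -0.02 over all genes tested. Values were higher in both gd6.5 libraries than in both virgin libraries for 32 of the 36, where 36.4% of all genes tested showed that order. Without gd6.5 replicate 1 or replicate 2 no gene of the list passed, and none passed with edgeR's own filter on low counts (49 tested) or with only the 4 libraries compared in the fit. Without virgin replicate 2, which carried Hba-a1, 20 passed, and without virgin replicate 1, which had little Gzmb, 14 passed. The shares of all genes that passed in these alternative settings are not given, so these counts have no background.

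All 6 MCM helicase genes were higher at gd6.5, 5 of them past the threshold. Mcm2 read 13.8 and 13.99 RPKM in the virgin libraries, 45.0 and 46.0 in those of gd6.5 and 19.0 and 16.7 in those of gd8.5. Mcm5 read 30.2 and 30.6 RPKM in the virgin libraries, 106 and 105 in those of gd6.5 and 53.1 and 37.3 in those of gd8.5. For both genes the gd6.5 libraries lay well above all others, and the gd8.5 libraries lay between, above both virgin libraries. The log2 fold changes at gd6.5 were 1.71 ± 0.19, adjusted p = 0.026 for Mcm5 and 1.62 ± 0.15, adjusted p = 0.019 for Mcm2 (± SE throughout). Mcm3 (1.47 ± 0.19, adjusted p = 0.027), Mcm4 (1.15 ± 0.23, adjusted p = 0.037) and Mcm6 (log2 0.90, adjusted p = 0.031) also rose. Mcm7 read 37.4 and 34.0 RPKM in the virgin libraries against 76.6 and 72.0 at gd6.5 and had a log2 change of 0.97 with an adjusted p of 0.053.

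Helicase activators followed in part. Cdc45, which joins the MCM ring with GINS, read 8.32 and 12.1 RPKM in the virgin libraries, 32.8 and 27.4 in those of gd6.5 and 26.3 and 17.5 in those of gd8.5, and rose at gd6.5 (1.48 ± 0.29, adjusted p = 0.035). Its gd8.5 libraries also lay above both virgin libraries. Gins1 was at 6.04 and 6.17, then 13.7 and 15.8, then 19.1 and 6.51 RPKM in the same order of groups, and the gd8.5 libraries lay far apart (gd6.5 log2 1.19, adjusted p = 0.16). Gins4, a further GINS subunit, was nearly level at 58.7 and 52.7, then 52.9 and 62.9, then 52.9 and 59.3 RPKM.

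Origin licensing genes had a median log2 change of 0.32, with none of 6 tested past the threshold. Cdc6, which helps to load the MCM ring, read 3.26 and 6.57 RPKM in the virgin libraries, 10.8 and 11.3 in those of gd6.5 and 10.7 and 5.69 in those of gd8.5. Orc2 was at 7.80 and 7.57, then 13.0 and 14.2, then 12.6 and 5.89 RPKM, with 29.8% of its exon bases shared with an antisense gene. Orc1, the subunit that varies with the cell cycle, was too low to be tested, at 0.288 and 2.56, then 4.71 and 5.25, then 2.48 and 3.03 RPKM. Both gd6.5 libraries were the highest of the 6 for these 3 genes. Orc3 and Orc4 had log2 changes of 0.08 and -0.29 at gd6.5 with adjusted p of 0.8 and 0.34.

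Among the polymerases, Pold1, the catalytic subunit of polymerase delta, read 4.04 and 7.80 RPKM in the virgin libraries, 18.0 and 23.1 in those of gd6.5 and 9.85 and 6.5 in those of gd8.5. It rose at gd6.5 with the numerically largest change of the 36 genes tested (1.71 ± 0.38, adjusted p = 0.044), though it passed the filter only through gd6.5. Its partner Pold2 rose too (1.10 ± 0.17, adjusted p = 0.029). Pola1, the catalytic subunit of polymerase alpha, was not tested and overlapped between groups at 3.66 and 5.5, then 4.59 and 6.21, then 6.32 and 1.66 RPKM. Pole, the catalytic subunit of polymerase epsilon, was also not tested, at 0.641 and 1.14, then 2.21 and 2.12, then 1.14 and 1.68 RPKM.

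The clamp gene had a small fitted change. Pcna read 107 and 129.7 RPKM in the virgin libraries, 136 and 131 in those of gd6.5 and 119 and 104 in those of gd8.5 (gd6.5 log2 0.09, adjusted p = 0.74). Of the clamp loader, which opens PCNA onto DNA, Rfc5 rose (log2 0.92, adjusted p = 0.031), Rfc3 was at 15.7 and 14.2, then 24.98 and 19.9, then 27.0 and 16.7 RPKM, and Rfc1 stayed under 11 RPKM at 9.63 and 8.32, then 8.04 and 10.9, then 9.15 and 8.39. Among the proteins that coat single-stranded DNA, Rpa2 was at 34.6 and 44.4, then 68.1 and 65.5, then 70.0 and 60.5 RPKM (gd6.5 log2 0.67, adjusted p = 0.062) and Rpa3 had a log2 change of -0.35 (adjusted p = 0.26). The gd8.5 libraries of Rpa2 were about as high as those of gd6.5.

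Lig1, the ligase that joins Okazaki fragments, read 10.6 and 21.2 RPKM in the virgin libraries, 33.9 and 34.2 in those of gd6.5 and 27.6 and 19.7 in those of gd8.5, with widely separated virgin libraries (gd6.5 adjusted p = 0.1). Fen1, the flap nuclease, was at only 1.69 and 0.795, then 3.71 and 3.77, then 1.79 and 1.38 RPKM, and 84.2% of its exon bases are shared with antisense genes, so its counts are uncertain. The fork protection gene Timeless was at 3.37 and 3.11, then 6.01 and 9.52, then 3.08 and 2.79 RPKM and was not tested. In each of these 3 genes both gd6.5 libraries exceeded both virgin libraries.

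All 4 nucleotide supply genes were higher at gd6.5, Rrm1 past the threshold (1.39 ± 0.31, adjusted p = 0.044). Rrm2 read 54.5 and 57.3 RPKM in the virgin libraries, 109 and 94.0 in those of gd6.5 and 85.7 and 49.7 in those of gd8.5. Tk1, which salvages thymidine, was at 10.3 and 17.4, then 32.8 and 27.5, then 23.0 and 15.4 RPKM. Tyms, which makes thymidylate, was at 19.6 and 20.6, then 34.1 and 22.5, then 28.0 and 24.3 RPKM. Only the gd6.5 libraries of Rrm2 and Tk1 were clear of all others. For these 3 genes the adjusted p at gd6.5 was 0.1 for Rrm2, 0.083 for Tk1 and 0.26 for Tyms.

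**Figure D2:**
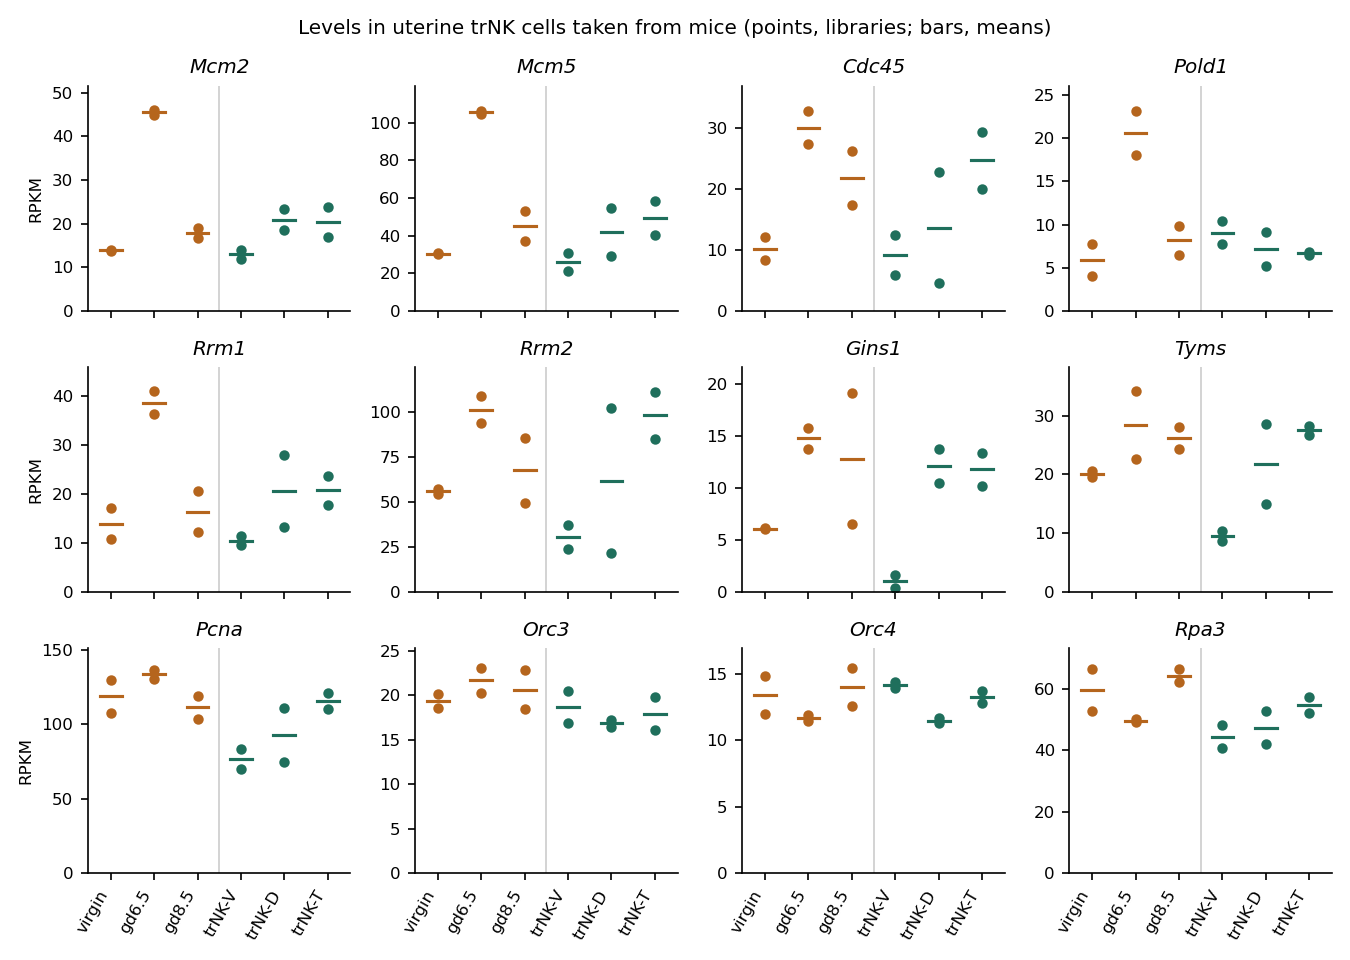
RPKM of single replication genes in the 6 groups of trNK sorted directly from the uterus (linear axes from 0), with the 2 libraries as points and their mean as a line. Mcm2 reached 45.0 and 46.0 RPKM at gd6.5 against 13.8 and 13.99 in virgin trNK, and Gins1 was at 1.62 and 0.423 RPKM in trNK-V against 10.2 to 13.8 in the 4 libraries of the other subsets.

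At gd8.5 against virgin, no gene of the 36 passed edgeR's test (0.422% of all genes passed), DESeq2 called 2 and limma-voom none. Of the 36, 4 had an unadjusted p under 0.05, against 638 of all 4504 genes. The median log2 change was 0.23 over the list, and without virgin replicate 2 edgeR called 4. From gd6.5 to gd8.5, 32 of 36 genes had lower fitted values, with a median log2 change of -0.47 against 0.01 over all genes, and 24 were lower in both gd8.5 libraries than in both gd6.5 libraries, an order that 35.8% of all genes tested showed. None passed edgeR's adjusted threshold, as for all genes (0% called), although 13 had an unadjusted p under 0.05, against 1071 of all 4504 genes. DESeq2 called 11 and limma-voom none. The adjusted p was 0.092 for Mcm2 (log2 -1.33) and 0.092 for Mcm5 (log2 -1.20). This comparison shares the gd6.5 libraries with the first, and the lower values cannot be read as independent of the rise.

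Other cell cycle genes were counted beside the list. Of the mitosis list, 20 of 31 genes passed the filter and 5 rose at gd6.5, with a median log2 change of 1.29, led by the kinase gene Plk1 (log2 2.70), the spindle checkpoint gene Bub1b (2.12) and the cyclin Ccnb1 (2.07). Of 42 genes of S-phase control and supply, 17 passed and 2 rose, among them the methylation factor Uhrf1 (log2 2.11). Summed RPKM of 10 markers of dividing cells was 77.5 and 254 in virgin, 460.3 and 314 in the gd6.5 libraries, and 226 and 262 in the gd8.5 libraries. Virgin replicate 1 was the lowest of the 6.

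The subsets asked whether the replication genes differed between trNK-V, trNK-D and trNK-T of the same gestation day. The GINS subunit Gins1, the primase gene Prim1 and the nucleotide supply gene Tyms rose in trNK-T above trNK-V, while the origin recognition genes Orc3 and Orc4 and the clamp loader gene Rfc2 had log2 differences of -0.09 to 0.11. trNK-D lay between or split, with replicate 1 near trNK-V and replicate 2 near trNK-T for many genes. Here 31 of the 49 genes passed the filter. The 18 that did not pass, with median RPKM from 1.33 (Pole) to 9.88 (Pold3), were Mcm10, Gins2, Gins3, Orc1, Orc2, Orc5, Cdc6, Cdt1, Pola1, Prim2, Pold1, Pold3, Pole, Pole2, Fen1, Dna2, Timeless and Wdhd1. Among genes given by library below, Gins1, Prim1, Tyms, Cdc45, Lig1 and Tk1 passed only through trNK-D or trNK-T. The filter itself thus favoured a rise above trNK-V in them.

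In trNK-T against trNK-V, 6 of the 31 genes rose and none fell, where 15.1% of all 4683 genes rose and 34.6% passed in either direction. The share of replication genes that rose was therefore near that over all genes. Their median log2 change was 0.71 (all genes -0.01), and 24 of 31 were higher in both trNK-T libraries than in both trNK-V libraries, an order shown by 36.5% of all genes. Leaving out 1 of the 4 libraries reduced the calls to 2 without trNK-V replicate 1, 1 without trNK-V replicate 2 or trNK-T replicate 1, and 0 without trNK-T replicate 2. With no filter on low values 25 of 49 passed, and with DESeq2 13. The shares of all genes that passed in these settings are not given here, so these counts have no background.

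Gins1 had the largest change of the 31 genes tested, and it passed the filter only through trNK-D and trNK-T. It was at 1.62 and 0.423 RPKM in trNK-V, 10.5 and 13.8 in trNK-D and 10.2 and 13.3 in trNK-T. The trNK-V libraries lay far below the other 4, and the log2 difference of trNK-T from trNK-V was 3.52 ± 0.63, adjusted p = 0.0093. Cdc45 was at 5.88 and 12.45, then 4.67 and 22.8, then 20.0 and 29.4 RPKM, with the trNK-D libraries far apart (trNK-T log2 1.43, adjusted p = 0.16).

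No MCM gene passed in the subsets. Mcm2 was at 14.01 and 12.02 RPKM in trNK-V, 18.5 and 23.4 in trNK-D and 17.0 and 23.8 in trNK-T (adjusted p = 0.063 for trNK-T against trNK-V). Mcm5 was at 30.8 and 21.2, then 29.4 and 54.6, then 40.5 and 58.6 RPKM (adjusted p = 0.08). Both trNK-T libraries of each gene lay above both trNK-V libraries.

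Of the 8 licensing genes 3 passed the filter in the subsets. Cdc6 was at 4.95 and 2.72, then 3.47 and 10.9, then 6.35 and 12.4 RPKM in trNK-V, trNK-D and trNK-T, Orc1 at 1.83 and 0.757, then 0.0691 and 3.40, then 2.46 and 5.11, and Orc2 at 6.60 and 4.10, then 5.63 and 7.43, then 9.58 and 13.5. None of these 3 was tested. Orc3 and Orc4, which were tested, had log2 differences of -0.06 and -0.09 between trNK-T and trNK-V.

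Prim1, the catalytic subunit of primase, was at 9.62 and 7.64 RPKM in trNK-V, 13.2 and 25.6 in trNK-D and 22.1 and 24.8 in trNK-T, and rose in trNK-T (1.45 ± 0.35, adjusted p = 0.022). Pola1 was at 3.17 and 2.34, then 4.86 and 7.94, then 4.01 and 5.07 RPKM, Pold1 at 10.4 and 7.69, then 5.19 and 9.12, then 6.51 and 6.82, and Pole at 0.209 and 1.51, then 0.892 and 1.89, then 1.41 and 1.25. These 3 catalytic subunits were not tested, and Pold1 was not higher in trNK-T. Pold2 rose in trNK-T (0.71 ± 0.17, adjusted p = 0.022), with no overlap between the groups.

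Pcna was at 69.9 and 83.5 RPKM in trNK-V, 74.5 and 111 in trNK-D and 110.4 and 121 in trNK-T (adjusted p = 0.085 for trNK-T against trNK-V). Of the clamp loader, Rfc3 was at 13.3 and 16.3, then 13.1 and 16.1, then 21.4 and 25.2 RPKM, and Rfc1 at 10.7 and 13.4, then 9.88 and 11.5, then 9.18 and 8.88. Rfc1 was the one anchor tested here whose trNK-T libraries both lay below both trNK-V libraries (log2 -0.42, adjusted p = 0.18). It passed the filter only through trNK-V, so the filter itself favoured a fall in it. Rpa2 was at 44.9 and 46.6, then 62.2 and 59.2, then 71.0 and 67.4 RPKM and rose in trNK-T by a small amount with a narrow spread (0.60 ± 0.14, adjusted p = 0.021).

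Lig1 was at 9.96 and 12.6, then 10.0 and 30.2, then 22.7 and 26.3 RPKM in trNK-V, trNK-D and trNK-T, Fen1 at 0.829 and 1.53, then 2.13 and 1.87, then 2.82 and 3.79, and Timeless at 3.90 and 3.66, then 2.48 and 4.36, then 3.74 and 4.44. Tipin, the partner of Timeless at the fork, was at 45.6 and 37.0, then 45.1 and 94.1, then 79.9 and 97.4 RPKM and rose in trNK-T (1.10 ± 0.35, adjusted p = 0.048). In Lig1 and Tipin trNK-D replicate 1 was near trNK-V and replicate 2 near trNK-T.

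Among the nucleotide supply genes, Tyms was at 8.65 and 10.5 RPKM in trNK-V, 14.9 and 28.5 in trNK-D and 28.2 and 26.8 in trNK-T, and rose in trNK-T (1.53 ± 0.32, adjusted p = 0.015). Rrm2 was at 23.9 and 37.2, then 21.5 and 102, then 85.0 and 111 RPKM, with a larger log2 difference of 1.68 but a wider spread (adjusted p = 0.087). Tk1 was at 5.24 and 14.5, then 8.5 and 25.6, then 19.9 and 24.4 RPKM (adjusted p = 0.18). For each of the 3 genes trNK-D replicate 2 was near the trNK-T libraries, and for Rrm2 and Tk1 trNK-D replicate 1 was at the level of trNK-V.

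In trNK-D against trNK-V no gene of the 31 passed edgeR's test (0.32% of all genes passed), DESeq2 called 3 and limma-voom none. Of the 31, 8 had an unadjusted p under 0.05, against 939 of all 4683 genes. The median log2 change was 0.53, and it was 0.78 without trNK-D replicate 1 and 0.08 without trNK-D replicate 2. The latter library carried Jchain, with summed B and plasma cell markers of 223 RPKM in replicate 1 and 1954 in replicate 2 (2 of 5 markers above 1 RPKM in both, Ms4a1 at 0), and a median mitosis-list RPKM of 17.0 against 3.43 in replicate 1. The part of these in the result was not tested. In trNK-T against trNK-D none of 31 passed (1.84% of all genes passed), and DESeq2 and limma-voom called none. Here 1 of the 31 had an unadjusted p under 0.05, against 1072 of all 4683 genes.

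In the subsets, 2 of 17 mitosis genes tested rose in trNK-T against trNK-V (15.1% of all genes rose), the kinase Aurkb (log2 1.77) and Bub1b (1.64), with a median of 1.10 over the 17. Of 15 S-phase control genes 3 rose and 1 fell, led by the G1/S cyclin Ccne1 (log2 2.12), the dUTPase Dut (1.43) and, falling, the deoxynucleotide hydrolase Samhd1 (-1.90). Summed stromal markers were 36.8 and 2.75 RPKM in trNK-V, 1.077 to 2.67 in trNK-D and 0.497 and 0.274 in trNK-T. Summed markers of conventional NK cells were 1494 to 2422 RPKM in trNK-V, 923 to 929 in trNK-D and 309 to 357 in trNK-T (6, 5 and 3 of 6 above 1 RPKM in both libraries), and those of ILC1 11.0 to 45.8, 10.6 to 17.1 and 0.228 to 0.399 (2, 2 and 0 of 5, Il7r at 0 throughout). The part of these cells in the differences was not tested.

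The inhibitor culture asked whether IL-21 and STAT3 inhibition moved the same genes after 3 days. No gene of the list passed with IL-21. With iSTAT3 most of the genes had lower values than with IL-21 alone, the lowest being Tipin, Prim1 and Tyms, but the libraries differed widely and none passed the test. Of the 49 genes, 28 passed the filter. The 21 that did not were Mcm2, Mcm10, Cdc45, Gins1, Gins2, Gins3, Orc1, Orc2, Orc5, Cdc6, Cdt1, Pola1, Prim2, Pold1, Pole, Pole2, Fen1, Dna2, Timeless, Wdhd1 and Tk1. Among genes given by library below, Prim1, Tyms, Mcm5 and Rfc3 passed only through groups without iSTAT3, so the filter itself favoured lower values with iSTAT3 in them. Lig1 and Rfc1 passed only through the group without IL-21, so it favoured lower values in both other groups.

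With IL-21 against no IL-21, none of the 28 passed by edgeR (0.289% of all 4158 genes passed), and DESeq2 and limma-voom called none. None of the 28 had an unadjusted p under 0.05, against 382 of all genes. The median log2 change was -0.04, with 12 genes higher and 16 lower. With IL-21 and iSTAT3 against IL-21, none passed (2.96% of all genes passed), DESeq2 called 2 and limma-voom none. An unadjusted p under 0.05 was reached by 7 of the 28 and by 824 of all genes. Here 21 of the 28 had lower fitted values (median -0.36, all genes -0.03). Both iSTAT3 libraries lay below both IL-21 libraries for 13 of the 28, an order that 28.9% of all genes tested showed. With IL-21 and iSTAT3 against no IL-21, none passed (4.74% of all genes passed), DESeq2 called 4 and limma-voom none. An unadjusted p under 0.05 was reached by 6 of the 28 and by 936 of all genes. In this comparison 24 of 28 were lower (median -0.54, all genes -0.02). Both iSTAT3 libraries lay below both libraries without IL-21 for 18 of the 28, as for 39.6% of all genes tested. The share of all genes with both iSTAT3 libraries lowest of the 6 was not computed, so such orders below have no background.

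Tipin was at 95.5 and 54.5 RPKM without IL-21, 86.2 and 44.2 with IL-21 and 23.9 and 16.8 with iSTAT3. Prim1 was at 26.4 and 11.9, then 11.4 and 16.01, then 1.91 and 6.73 RPKM in the same order. Tyms was at 16.5 and 12.9, then 19.7 and 13.3, then 9.05 and 3.77 RPKM. In all 3 genes both iSTAT3 libraries were the lowest of the 6, with log2 differences from IL-21 of -1.60, -1.55 and -1.28 and adjusted p of 0.13, 0.25 and 0.21.

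Rrm2 was at 81.5 and 53.9 RPKM without IL-21, 58.5 and 102 with IL-21 and 44.9 and 24.0 with iSTAT3. Tk1 was at 13.6 and 7.72, then 9.50 and 9.80, then 7.22 and 2.02 RPKM. Pcna was at 99.5 and 71.1, then 98.1 and 110.5, then 62.6 and 41.9 RPKM. For these 3 genes the iSTAT3 libraries again lay below the other 4, with Rrm2 and Pcna at adjusted p of 0.22 and 0.21 against IL-21 and Tk1 not tested.

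The MCM genes did not follow this order. Mcm2 was at 3.13 and 7.45, then 4.16 and 9.39, then 5.82 and 1.86 RPKM in the cultures without IL-21, with it and with iSTAT3 added, and Mcm5 was at 15.9 and 21.99, then 12.6 and 29.0, then 15.5 and 3.5. For Mcm5 replicate 1 with iSTAT3 was close to the lower library without IL-21 and replicate 2 was the lowest of all 6. Cdc45 was at 17.4 and 6.03, then 8.19 and 12.7, then 8.82 and 8.04 RPKM and likewise overlapped.

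Several licensing and polymerase genes did not pass the filter in this culture. Cdc6 was at 5.39 and 3.10, then 3.62 and 7.28, then 5.43 and 0.250 RPKM in the cultures without IL-21, with it and with iSTAT3 added. Orc1 was at 2.18 and 1.29, then 2.45 and 4.71, then 0 and 0.255 RPKM, and Orc2 at 8.05 and 6.97, then 2.47 and 5.94, then 3.99 and 4.80. For Orc1 the iSTAT3 libraries were at or near 0. Pola1 was at 6.06 and 1.96, then 3.68 and 1.55, then 2.69 and 3.29 RPKM, Pold1 at 4.18 and 7.48, then 0.962 and 5.71, then 0.362 and 0.322, and Pole at 1.21 and 0.413, then 1.71 and 1.92, then 0.200 and 0.196. Of the 3 catalytic subunits, Pold1 and Pole were lowest in both iSTAT3 libraries, and none was tested.

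Rfc1 was at 11.7 and 14.1, then 6.94 and 7.77, then 9.73 and 6.15 RPKM in the cultures without IL-21, with it and with iSTAT3 added, and Rfc3 at 22.5 and 10.3, then 12.9 and 18.2, then 4.36 and 18.3. Rpa2 was at 57.0 and 54.7, then 64.8 and 47.1, then 42.3 and 42.5 RPKM, lowest in both iSTAT3 libraries. Lig1 was at 11.4 and 10.6, then 7.82 and 14.2, then 13.3 and 3.77 RPKM and overlapped between groups. Fen1 was at 0.265 and 1.09, then 0.542 and 1.93, then 1.72 and 0.194 RPKM, and Timeless at 2.84 and 1.97, then 0.483 and 2.92, then 1.04 and 0.939, both under the filter.

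Of other cell cycle genes in this culture, the S-phase cyclin Ccna2 (log2 -3.27) and the mitotic exit gene Cdc20 fell with iSTAT3 against IL-21, 1 of 9 S-phase control genes and 1 of 11 mitosis genes tested. Summed dividing markers were 248 and 162 RPKM without IL-21, 166 and 93.4 with IL-21, and 52.3 and 46.9 with iSTAT3. Ncr1 was at 46.8 and 77.3 RPKM in the iSTAT3 libraries.

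The time course asked how the genes moved over the hours of culture in IL-15, with or without IL-21. Through 24 h the replication genes kept most of their summed level, from 24 h to 72 h 21 of 29 genes tested fell without IL-21 and 13 with it, and at 72 h several of the helicase and nucleotide supply genes were higher with IL-21 than without. The origin recognition genes Orc3 and Orc4 and the single-strand binding gene Rpa3 had no change past the threshold from 24 h to 72 h. Of the 49 genes, 29 passed the filter over the 8 groups. The 20 that did not were Mcm2, Mcm5, Mcm7, Mcm10, Gins3, Orc1, Orc2, Orc5, Cdc6, Cdt1, Pola2, Prim2, Pold1, Pold3, Pole, Rfc1, Fen1, Dna2, Timeless and Wdhd1. Over 10 RPKM were 20 and 22 of the 49 genes at 24 h without IL-21. At 72 h these counts were 8 and 8 without IL-21 and 13 and 8 with it. Gins1, Gins2, Mcm3, Cdc45, Prim1, Pola1, Rfc3, Rpa1, Lig1, Rrm2, Tyms and Tk1, given by library below, passed only through groups before 72 h. The filter itself thus favoured a fall to 72 h in them.

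No gene of the 29 passed edgeR's test at 6 h against 0 h without IL-21 (0% of all 3503 genes passed), nor from 6 h to 24 h without IL-21 (0.0856% passed). DESeq2 and limma-voom called none in either. At an unadjusted p under 0.05 the counts were 0 and 1, against 106 and 197 of all genes. From 6 h to 24 h, 28 of the 29 had lower fitted values, with a median log2 change of -0.44 (all genes -0.01), and 23 were lower in both 24 h libraries, an order that 34.7% of all genes showed. Over the same interval the mitosis list had a median of 0.23, with 15 of 19 genes higher.

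From 24 h to 72 h without IL-21, 21 of the 29 genes fell and none rose, where 11.3% of all genes fell and 17.7% passed in either direction. The median log2 change was -3.44 over the list and -0.04 over all genes. With IL-21, 13 of the 29 fell and none rose, where 7.62% of all genes fell and 18.6% passed in either direction, and the median was -2.07 (all genes 0.00). DESeq2 called 22 without and 20 with IL-21, and with only the groups compared in the fit edgeR called 4 and 7. The 72 h libraries without IL-21 held 10724 and 11665 genes with a count, against 13340 and 14229 at 24 h, and 13 and 18 of the 49 genes had no count. The part of this lower complexity in the fall was not tested.

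The 13 genes that fell with IL-21 also fell without it, namely Mcm6, Gins1, Gins2, Orc6, Pola1, Prim1, Pcna, Rfc3, Rfc4, Lig1, Tipin, Tyms and Rrm2. Rfc4 encodes a subunit of the clamp loader. It was at 128 and 112 RPKM at 24 h and 18.7 and 24.8 at 72 h without IL-21, and 175 and 186 and then 10.6 and 19.8 with it (-2.09 ± 0.36, adjusted p = 0.003 without and -3.11 ± 0.38, adjusted p = 0.00041 with IL-21). The 8 that fell past the threshold without IL-21 and did not pass with it were Mcm3, Mcm4, Cdc45, Pold2, Rfc5, Rpa1, Rpa2 and Rnaseh2a, a subunit of the enzyme that removes RNA from DNA, and whether their fall differed between the arms was not tested. Rnaseh2a was at 9.30 and 11.5 RPKM at 24 h and 2.97 and 3.05 at 72 h without IL-21 (log2 -1.44, adjusted p = 0.017).

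Gins1 fell to no count at all without IL-21. It was at 40.1 and 49.5 RPKM at 0 h, 50.7 and 31.3 at 6 h, 32.6 and 19.3 at 24 h and 0 and 0 at 72 h without IL-21. From counts of 1497 and 1255 at 24 h to none at 72 h it was at least 444-fold lower, set against a floor of 3 counts per library (adjusted p = 4.7e-06). With IL-21 Gins1 was at 38.2 and 37.2 RPKM at 24 h and 2.74 and 3.93 at 72 h (log2 -3.07, adjusted p = 0.0014). Its counts at 72 h with IL-21 were 152 and 170, at least 57.1-fold above the floor of the libraries without IL-21 (adjusted p = 3.1e-05). No other gene of the 29 tested had 0 counts in both libraries of a group, and placing Gins1 at its bound left the medians as given.

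Among other helicase activators, Gins2 was at 11.7 and 8.91 RPKM at 24 h and 0 and 0.0117 at 72 h without IL-21, and 19.3 and 15.9 and then 0.787 and 0.941 with IL-21. Its counts without IL-21 were 1451 and 1566 at 24 h and 0 and 2 at 72 h, so its fitted values depend on the prior count. It fell in both arms (fitted log2 -10.08, and -13.84 to -9.36 over the alternatives, adjusted p = 3.9e-06 without IL-21) and was higher with IL-21 at 72 h (fitted log2 6.81, and 6.07 to 10.58 over the alternatives, adjusted p = 4.6e-05), although 67.3% of its exon bases are shared with the antisense gene Gse1. Cdc45 was at 11.1 and 9.54 RPKM at 0 h, 13.8 and 9.30 at 6 h, 5.71 and 8.79 at 24 h and 0.150 and 0.699 at 72 h without IL-21, a fall past the threshold (-3.66 ± 1.14, adjusted p = 0.048). With IL-21 the same gene was at 3.67 and 13.99, then 20.4 and 20.8, then 14.3 and 10.2, then 2.38 and 0.0999 RPKM. At 72 h replicate 2 with IL-21 lay below both libraries without it and replicate 1 above both.

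Of the MCM genes tested, Mcm3 was at 6.15 and 7.15 RPKM at 24 h and 0.0653 and 0 at 72 h without IL-21, and 14.3 and 12.04 and 2.79 and 2.08 with IL-21. At 72 h it was higher with IL-21 (6.30 ± 0.95, adjusted p = 0.002), as were Mcm4 (4.72 ± 0.82, adjusted p = 0.0046) and Mcm6 (2.46 ± 0.59, adjusted p = 0.025). With counts of 7 and 0 for Mcm3 and 2 and 32 for Mcm4 in the libraries without IL-21, the fitted values ran from 5.28 to 11.91 and from 3.95 to 7.55 over the alternatives. For these 3 genes both libraries with IL-21 lay above both without, an order that 21.6% of all genes tested showed. Mcm2, under the filter, was at 4.06 and 2.54, then 2.44 and 3.17, then 1.64 and 1.64, then 0 and 0.387 RPKM over the 4 times without IL-21, and 2.40 and 5.95, then 4.16 and 2.79, then 3.07 and 2.71, then 0.641 and 0 with IL-21. Mcm5 was at 8.16 and 8.09, then 8.74 and 8.09, then 3.44 and 3.79, then 0.105 and 0 RPKM without IL-21, and 3.56 and 8.49, then 11.9 and 8.64, then 8.78 and 5.47, then 1.71 and 0 with IL-21. In both the 72 h arms overlapped.

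Of the origin recognition complex 3 genes were tested in the time course, and 1 passed. Orc6 fell from 24 h to 72 h (-1.64 ± 0.23, adjusted p = 0.00069 without IL-21), whereas Orc4 was at 26.4 and 18.8 RPKM at 24 h and 30.9 and 22.02 at 72 h (log2 0.56, adjusted p = 0.2). Orc3 was at 16 and 11.1 and then 6.11 and 30.2 RPKM, with a spread at 72 h that covered every other library without IL-21. Orc1 was at 0.706 and 0.854, then 2.61 and 1.12, then 1.93 and 0.510, then 0 and 0 RPKM without IL-21 and 1.74 and 3.36, then 1.66 and 1.27, then 1.96 and 2.03, then 0.0550 and 0 with IL-21. Its counts without IL-21 were 204 and 76 at 24 h and none at 72 h. Orc2 was at 5.24 and 6.96, then 8.04 and 5.70, then 3.21 and 1.95, then 1.14 and 1.93 RPKM without IL-21 and 7.02 and 7.86, then 7.46 and 13.4, then 5.70 and 7.65, then 1.71 and 0.936 with IL-21. Cdc6 was at 2.06 and 4.85, then 4.08 and 4.30, then 4.10 and 2.24, then 0 and 0.00918 RPKM without IL-21 and 1.83 and 6.62, then 7.53 and 8.94, then 5.62 and 3.25, then 0.350 and 0.147 with IL-21. Both licensing genes were lowest at 72 h in each arm.

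**Figure D3:**
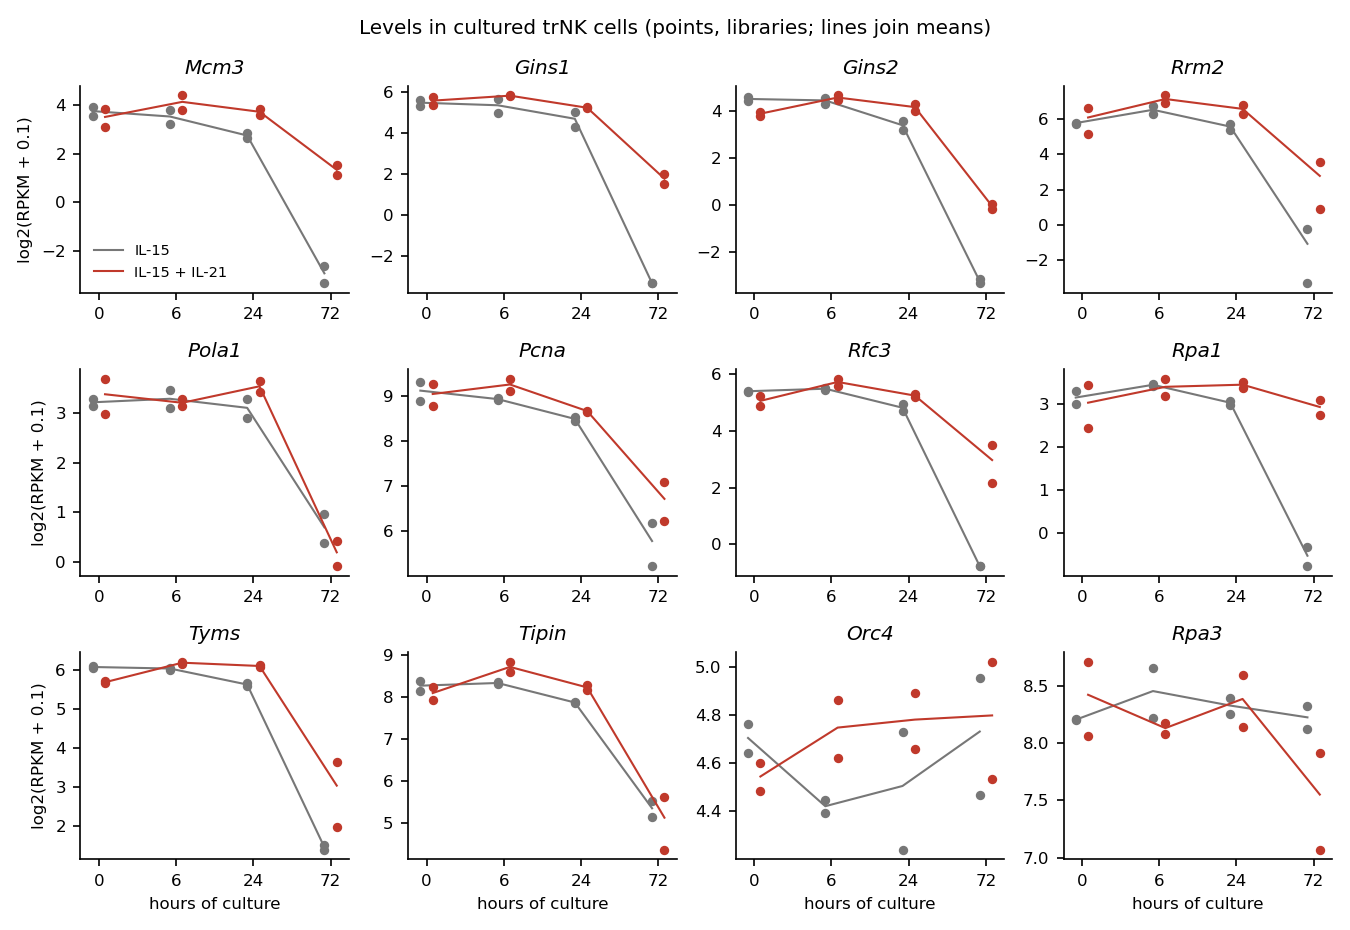
Levels of single replication genes, log2(RPKM + 0.1), against hours of culture (evenly spaced, not to scale) in IL-15 without (grey) and with IL-21 (red), with the 2 libraries of each time as points and lines joining their mean RPKM on that scale. Gins1 and Gins2 lie far lower at 72 h than at 24 h in both arms, whereas Orc4 (22.02 to 32.3 RPKM at 72 h) does not.

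Prim1 was at 42.0 and 32.0 RPKM at 24 h and 0.452 and 0.0124 at 72 h without IL-21, and 50.5 and 42.5 and 5.12 and 1.02 with IL-21. It fell in both arms and was higher with IL-21 at 72 h (3.68 ± 0.93, adjusted p = 0.033). Pola1 was at 8.73 and 9.59, then 10.8 and 8.42, then 9.64 and 7.31, then 1.2 and 1.85 RPKM without IL-21 and 7.74 and 12.8, then 9.54 and 8.66, then 12.3 and 10.6, then 1.25 and 0.843 with IL-21, falling in both arms (-2.10 ± 0.34, adjusted p = 0.0018 without and -3.10 ± 0.35, adjusted p = 0.00031 with IL-21). At 72 h the arms of Pola1 overlapped.

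Pold1 did not exceed 2.02 RPKM in any library, at 1.07 and 1.23, then 0.911 and 0.740, then 0.0475 and 0.595, then 0.533 and 0.00494 without IL-21 and 0.805 and 2.02, then 0.549 and 0.753, then 0.847 and 1.05, then 0.563 and 0 with IL-21. Pole was at 1.78 and 0.901, then 1.56 and 1.40, then 2.95 and 0.359, then 0 and 0 RPKM without IL-21 and 1.72 and 2.32, then 1.96 and 1.83, then 1.49 and 0.793, then 0.291 and 0.0126 with IL-21. Without IL-21 Pole had counts of 999 and 172 at 24 h and none at 72 h, the 24 h libraries far apart.

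Pcna was at 474 and 632 RPKM at 0 h, 477 and 494 at 6 h, 371 and 346 at 24 h and 72.7 and 37.2 at 72 h without IL-21, and 436 and 614, then 665 and 550.1, then 407 and 401, then 135 and 74.7 with IL-21. It fell in both arms (-2.39 ± 0.27, adjusted p = 0.00013 without and -1.62 ± 0.26, adjusted p = 0.0023 with IL-21) yet stayed among the higher genes of the list at 72 h. Rfc3 was at 41.5 and 42.4, then 45.5 and 43.8, then 30.4 and 25.6, then 0.485 and 0.492 RPKM without IL-21 and 29.4 and 36.9, then 57.1 and 48.1, then 36.5 and 38.9, then 11.1 and 4.35 with IL-21, higher with IL-21 at 72 h (3.83 ± 0.32, adjusted p = 3.1e-05). Rfc1 was at 6.06 and 7.93, then 6.28 and 6.19, then 4.14 and 5.37, then 1.51 and 7.03 RPKM without IL-21 and 7.0 and 12.8, then 6.16 and 7.24, then 8.31 and 8.34, then 3.57 and 3.34 with IL-21, with overlapping arms at 72 h.

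The subunits of the single-strand binding protein parted at 72 h. Rpa1 was at 8.35 and 7.81 RPKM at 24 h and 0.703 and 0.482 at 72 h without IL-21, but 11.4 and 10.3 and 8.44 and 6.63 with IL-21 (72 h log2 3.60 ± 0.37, adjusted p = 9.5e-05). Rpa2 was at 40.4 and 54.1, then 57.6 and 39.3, then 35.1 and 39.5, then 15.0 and 7.92 RPKM without IL-21 and 20.8 and 49.9, then 68.0 and 86.0, then 57.4 and 38.3, then 20.2 and 14.3 with IL-21. Rpa3 was at 337 and 306 RPKM at 24 h and 320.0 and 278 at 72 h without IL-21 (log2 0.24, adjusted p = 0.71).

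Lig1 was at 14.9 and 16.6, then 16.03 and 16.5, then 12.2 and 11.7, then 0.484 and 0 RPKM without IL-21 and 13.0 and 24.3, then 15.7 and 20.1, then 17.8 and 17.6, then 0.788 and 0.0985 with IL-21, falling in both arms. Fen1 was under 0.5 RPKM in every library, at 0.137 and 0.0210, then 0.115 and 0.149, then 0 and 0.0289, then 0 and 0 without IL-21 and 0.0242 and 0.204, then 0.369 and 0.428, then 0.225 and 0.0539, then 0.0113 and 0 with IL-21. Timeless was at 0.792 and 0.736, then 0.893 and 0.645, then 0.706 and 0.439, then 0 and 0 RPKM without IL-21 and 0.681 and 1.07, then 1.33 and 0.980, then 0.633 and 0.689, then 0.00447 and 0.390 with IL-21. Only Lig1 of these 3 was high enough to be tested (-5.41 ± 1.36, adjusted p = 0.021 without IL-21).

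Rrm2 was at 55.9 and 53.6, then 108 and 77.4, then 53.0 and 42.2, then 0.745 and 0 RPKM without IL-21 and 35.6 and 101, then 119.7 and 163, then 114 and 77.8, then 11.7 and 1.78 with IL-21. Tyms was at 65.5 and 68.6, then 64.1 and 66.4, then 47.8 and 50.5, then 2.55 and 2.79 RPKM without IL-21 and 52.3 and 50.05, then 73.5 and 71.2, then 69.8 and 66.7, then 12.4 and 3.85 with IL-21. Both fell in each arm and were higher with IL-21 at 72 h (4.12 ± 1.15, adjusted p = 0.047 for Rrm2, 1.42 ± 0.32, adjusted p = 0.019 for Tyms). Tk1 was at 34.0 and 38.3, then 54.6 and 39.9, then 24.98 and 19.7, then 0 and 2.34 RPKM without IL-21 and 26.9 and 40.2, then 37.4 and 42.8, then 40.0 and 31.4, then 4.31 and 0 with IL-21. At 72 h its arms overlapped.

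With all groups of the time course in the fit, IL-21 at the earlier times moved no gene of the list past the threshold by edgeR, DESeq2 or limma-voom, whereas with only the 24 h groups in the fit edgeR called 7 at 24 h. The share of all genes called in that smaller fit is not given here. With all groups in the fit, 0% of all genes passed at 0 h, 2.2% at 6 h and 1.8% at 24 h. At each of these times 0 of the 29 had an unadjusted p under 0.05, against 110, 429 and 527 of all 3503 genes. At 24 h 27 of the 29 had higher fitted values with IL-21 (median log2 0.37, all genes 0.01), and 22 were higher in both libraries with IL-21 than in both without, an order that 39.8% of all genes showed. At 72 h 10 of the 29 were higher and none lower, where 7.34% of all genes were higher and 9.39% passed in either direction (median 0.85, all genes 0.05). The 72 h libraries held 13996 and 12000 genes with a count with IL-21 and 10724 and 11665 without, and the part of this in the difference was not tested. The count was 16 without replicate 1 of the libraries lacking IL-21, and with only the 4 libraries of 72 h in the fit no gene passed of the 8 of the list that then met the filter.

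The IL-21 effect at 72 h exceeded that at 6 h for 6 of the 29 genes (3.68% of all genes had a larger effect at 72 h and 4.25% differed in either direction), namely Gins1, Gins2, Mcm3, Mcm4, Rpa1 and Rfc3. Without replicate 1 of the 72 h libraries lacking IL-21, 13 genes differed. Of the mitosis list, 13 of 19 genes tested were higher with IL-21 at 72 h, and from 24 h to 72 h 19 of 19 fell without IL-21 and 11 with it. Summed dividing markers were 12.51 and 0.791 RPKM at 72 h without IL-21 and 146 and 90.1 with IL-21, against 863 to 1016 at 24 h. Of the S-phase control list 3 of 16 were higher and 1 lower with IL-21 at 72 h.

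Single cells showed which cells carried the replication genes. Of 15175 cells and 35237 genes, 13084 cells passed the filter of over 200 UMIs (unique molecular identifiers, which count captured RNA molecules) and under 10% mitochondrial counts, with a median of 4328.5 UMIs. The 2 single-cell tables list the same cells with no map to the virgin and gd8.5 samples, so all cells were taken as 1 sample, no test was made, and every interval covers counting error only. Cells were clustered without the replication genes and without the S-phase control list. Clusters 6 and 9 of 16 had 10 and 9 of 10 dividing markers leading and were called dividing-like. Of the other clusters, 5 were high in the trNK and NK factor Eomes and form the other Eomes-high cells. No doublet caller was run.

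The 1254 dividing-like cells made up 9.58% of the cells and 17.7% of the UMIs, and they held 36.0% of the UMIs of the replication genes. The list came to 5210.4 CPM (UMIs per 1000000 UMIs) in them (95% Poisson interval 5173 to 5248), 1996 (1984 to 2008) in the 8166 other Eomes-high cells, 1942 (1918 to 1967) in the 3664 cells of the 9 remaining clusters and 1950.4 (1858 to 2047) in 323 B-like cells, 1 of those 9. The mitosis list, which holds the markers that named the clusters, came to 5191 CPM in the dividing-like cells and 456 in the other Eomes-high cells. By single cluster the Eomes-high cells ranged from 1582 (cluster 4) to 2394 CPM (cluster 1), and the 9 remaining clusters from 398 (cluster 15, 13 cells) to 2666 (cluster 8). The B-like cells also held Ncr1 at 124 and Eomes at 113 CPM, against 347 and 392.1 in the other Eomes-high cells, and the part of such NK cell RNA, free or from doublets, in their level of the list was not tested. Median depth was 9969 UMIs in the dividing-like cells, 5298 in the other Eomes-high cells and 1875 in the B-like cells. In cells of 8000 to 12000 UMIs only, a window chosen after seeing the data, the values were 5405 in the dividing-like and 2159 in the other Eomes-high cells.

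**Figure D4:**
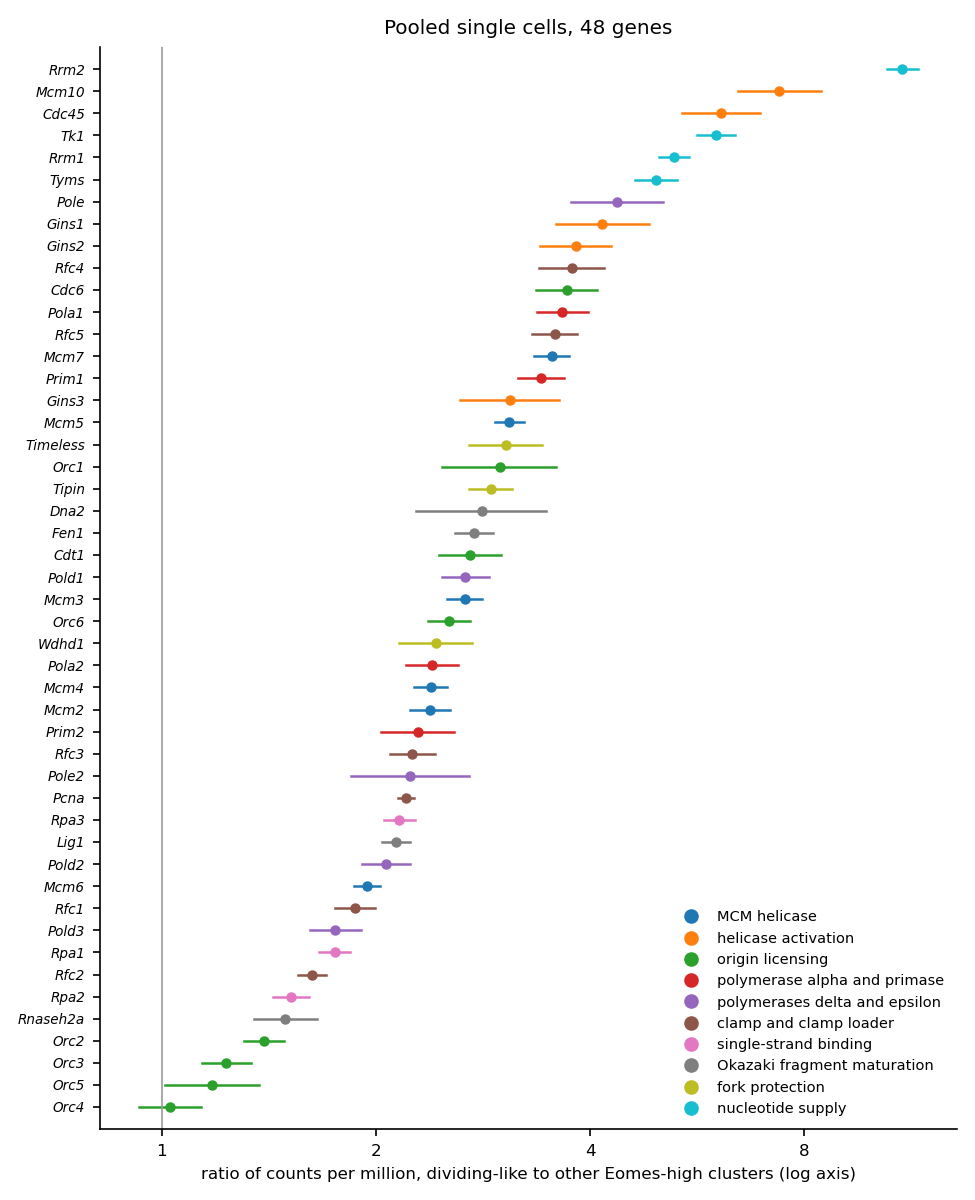
Ratio of CPM in dividing-like cells to other Eomes-high cells for 48 replication genes, in order of the ratio and coloured by role, on a log axis, with 95% conditional intervals that cover counting error only. Rrm2 is the highest at 11.0 and Orc4 the lowest at 1.03, whose interval reaches below 1.

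The ratio of dividing-like to other Eomes-high cells was above 1 beyond its counting interval for 47 of 48 genes, was at least 2 for 37 and at least 4 for 8, with a median of 2.67, against 16.02 for the mitosis list. These counts were not made over all genes of the single-cell data, so they cannot be read as particular to the list. A nucleotide supply gene had the highest ratio. Rrm2 was at 413 CPM in the dividing-like and 37.6 CPM in the other Eomes-high cells (ratio 11.0, 10.4 to 11.6). Tk1 was at 190.0 CPM in the dividing-like and 31.6 CPM in the other Eomes-high cells (ratio 6.01, 5.66 to 6.38), and Tyms at 139 CPM in the dividing-like and 28.0 CPM in the other Eomes-high cells (ratio 4.95, 4.63 to 5.30). Rrm1 lay between Tk1 and Tyms (ratio 5.25, 5.00 to 5.52). All 4 enzymes of nucleotide supply were thus among the 6 genes with the highest ratio.

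The helicase activators Mcm10 and Cdc45 were the other 2 of these 6. Mcm10, which is needed for origin firing, was at 45.8 CPM in the dividing-like and 6.2 CPM in the other Eomes-high cells (ratio 7.37, 6.46 to 8.43), and Cdc45 at 44.9 CPM in the dividing-like and 7.35 CPM in the other Eomes-high cells (ratio 6.10, 5.38 to 6.92). The MCM genes had lower ratios, from 1.94 (Mcm6) to 3.53 (Mcm7). Mcm5 was at 224 CPM in the dividing-like and 72.7 CPM in the other Eomes-high cells (ratio 3.08, 2.94 to 3.22), and Mcm2 at 103 CPM in the dividing-like and 43.0 CPM in the other Eomes-high cells (ratio 2.38, 2.23 to 2.54).

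The licensing genes lay between 1.03 (Orc4) and 3.71 (Cdc6). Cdc6 was at 54.8 CPM in the dividing-like and 14.8 CPM in the other Eomes-high cells (ratio 3.71, 3.36 to 4.09) and Orc1 at 14.7 CPM in the dividing-like and 4.93 CPM in the other Eomes-high cells (ratio 2.98, 2.48 to 3.58). Orc2 was at 85.1 CPM in the dividing-like and 61.2 CPM in the other Eomes-high cells (ratio 1.39, 1.30 to 1.49). At the low end stood Orc3 (ratio 1.23, 1.14 to 1.33), Orc5 (ratio 1.18, 1.01 to 1.37) and Orc4 (ratio 1.03, 0.928 to 1.13), so the subunits of 1 complex differed from about 3 to about 1 between Orc1 and Orc4.

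Of the catalytic subunits, Pole had the highest ratio (4.36, 3.76 to 5.06), ahead of Pola1 (3.66, 3.37 to 3.97) and Pold1 (2.67, 2.47 to 2.88). Pcna was the most abundant gene of the list, at 618 CPM in the dividing-like and 281 CPM in the other Eomes-high cells (ratio 2.20, 2.15 to 2.26). Rfc3 (ratio 2.25, 2.09 to 2.42) and Rfc1 (ratio 1.87, 1.75 to 1.99) of the clamp loader and Rpa2 (ratio 1.52, 1.43 to 1.61) lay below the median. Lig1 was at 210.0 CPM in the dividing-like and 98.4 CPM in the other Eomes-high cells (ratio 2.13, 2.04 to 2.23) and Timeless at 35.8 CPM in the dividing-like and 11.8 CPM in the other Eomes-high cells (ratio 3.04, 2.71 to 3.42). Fen1 was at 122 CPM in the dividing-like and 44.6 CPM in the other Eomes-high cells (ratio 2.75, 2.58 to 2.92), although it was among the lowest genes in bulk, where antisense genes share most of its exon bases.

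Between the 2 dividing-like clusters, 36 of 48 genes had a higher CPM in cluster 9 (378 cells) than in cluster 6 (876 cells), with 6082 and 4875 CPM for the list. The share of all genes with a higher CPM in cluster 9 was not computed. Rrm2 was at 596 CPM in cluster 9 and 343 in cluster 6, and Tipin at 144 and 83.1, whereas Cdt1, which is removed once S phase begins, was at 37.7 and 48.9.

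**Figure D5:**
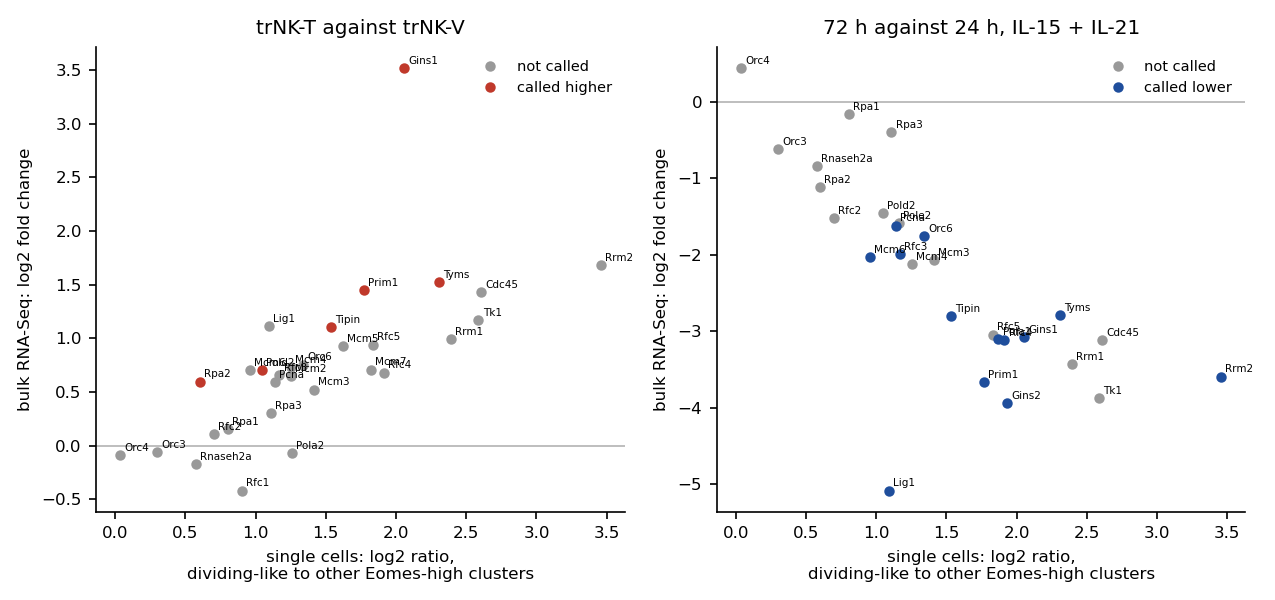
Bulk log2 fold change (y axis) of trNK-T against trNK-V (left) and of 72 h against 24 h with IL-21 (right), plotted against the log2 single-cell ratio of dividing-like to other Eomes-high cells, with each replication gene tested in bulk as a point, coloured where edgeR called it. Genes of high ratio such as Tyms (4.95) had larger values in trNK-T against trNK-V (Spearman 0.80, 30 genes) than genes of low ratio such as Orc4 (1.03).

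The single-cell ratios were set beside the bulk changes gene by gene, as a description across genes, which are not independent replicates. Spearman's rho with the bulk log2 change was 0.80 for trNK-T against trNK-V and 0.77 for trNK-D against trNK-V (30 genes each), which share the trNK-V libraries, and 0.42 for gd6.5 against virgin (35 genes). In culture it was -0.60 for iSTAT3 against IL-21 alone (27 genes) and -0.80 for 72 h against 24 h with IL-21 (28 genes), but -0.52 without IL-21. For IL-21 against no IL-21 it was 0.26 in the inhibitor culture and 0.23 at 72 h of the time course. Over all 18 comparisons it ran from -0.80 to 0.80. In trNK-T against trNK-V the 22 genes with a ratio of at least 2 had a median log2 change of 0.84, and the 8 with a lower ratio had 0.03. At gd6.5 against virgin the medians were 0.94 for 26 genes and 0.50 for 9. Genes with an E2F word in the promoter had a median ratio of 2.67 (25 genes) and those without one 2.47 (16 genes).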

How the data were processed

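The study's bulk libraries were trimmed with Trimmomatic, aligned with HISAT2 2.1.0 to mm10 and counted per gene with featureCounts, per the labels' processing notes, and the counts per gene, with exon length, are those the authors deposited. Strand use in counting is not given in the sources used here. Single-cell UMI counts were deposited by the authors from the BD Rhapsody pipeline. RPKM, computed here from the counts, exon lengths and library totals, gave the levels and the filter (over 10 in both libraries of any group of an experiment). Counts were tested per experiment with edgeR 4.0.16 (R 4.3.3; TMM, glmQLFit and glmQLFTest, all groups of the experiment in the fit) with Benjamini-Hochberg adjustment over all genes tested and a threshold of 0.05, in 18 comparisons, where the study used limma. DESeq2 1.42.0 and limma-voom 3.58.1 were alternatives, with other filters, libraries and calls. Shares of all genes are given for the main fit only, so counts under the alternatives have no background beside them. Fold changes are log2 with SE from the fit.

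Single cells were clustered with scanpy 1.11.5 and leidenalg 0.10.2 (2000 variable genes without the replication and S-phase lists, 20 components, 20 neighbours, resolution 0.8). The study's methods state under 2500 UMIs per cell, which was an alternative here. UMIs were summed over classes, with 95% exact Poisson and conditional binomial intervals. Floors of 3 counts and intervals cover counting error only.

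The genes, lists and groups of genes by role were chosen with earlier results of these data known. In each experiment the values of 19 anchor genes were given whatever they did, and in each comparison the genes that passed were named, at most 8 with full statistics; other genes named were chosen after their values were seen. Same-numbered replicates deviated together in some pairs of groups and not in others (correlations of -0.31 to 0.11 in gestation, -0.01 to 0.39 in the subsets, -0.43 to 0.54 in the inhibitor culture, -0.34 to 0.41 in the time course), so the numbers were not taken as pairs. Scripts were tested on simulated counts with known changes. Chromatin accessibility samples (6) were not analysed here.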

Additional observations from a re-analysis of the deposited data

Results flagged for a closer look

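For 6 replication genes the response to IL-21 at 72 h of culture differed from that at 6 h by a test of the difference itself (edgeR interaction term, 2 libraries in each of the 4 groups). The log2 IL-21 effect at 72 h exceeded that at 6 h by 10.65 for Gins1 (adjusted p = 0.00017), where both 72 h libraries without IL-21 held 0 counts. The difference was 6.719 for Gins2 (adjusted p = 0.0003), 5.717 for Mcm3 (adjusted p = 0.017) and 4.612 for Mcm4 (adjusted p = 0.028). It was 3.687 for Rpa1 (adjusted p = 0.00091) and 3.62 for Rfc3 (adjusted p = 0.0003). At 72 h all 6 genes, each of which had also passed in that comparison, were higher in both libraries with IL-21 than in both without. That order was shown by 15 of the 29 genes of the list tested and by 21.6% of all genes tested. Without IL-21 the counts at 72 h were 0 and 2 for Gins2, 7 and 0 for Mcm3, 2 and 32 for Mcm4, 50 and 74 for Rfc3 and 112 and 112 for Rpa1. With so few counts the fitted differences of Gins1, Gins2, Mcm3 and Mcm4 depend on the prior count. Over 16 alternatives they ran from 7.84 to 11.04 for Gins1, 5.96 to 10.47 for Gins2, 4.69 to 11.32 for Mcm3 and 3.83 to 7.42 for Mcm4, which passed in 16, 15, 12 and 11 of them (adjusted p up to 0.267 for Mcm3 and 0.272 for Mcm4), while Rpa1 and Rfc3 passed in all 16. Rpa1 was at 11.0 and 10.6 RPKM at 6 h without IL-21 and 8.98 and 11.97 with it, and at 0.703 and 0.482 and 8.44 and 6.63 at 72 h.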

How the results depend on the processing

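Of 66 calls of single genes none reversed its direction under the alternatives that gave it a value. RLE size factors and DESeq2 kept 66, limma-voom kept 62, edgeR's own filter 49 and a fold change above 2 kept 62, the replicate block 54 and no filter 65, whereas fits of only the groups compared lost 27 of 47 and leaving out libraries lost 75 of 288.
The number of replication genes called moved as follows, given without the shares of all genes called, so these counts have no background. At gd6.5 against virgin (10 called) it was 18 with DESeq2, 16 with no filter, and 0 with edgeR's own filter or with only the 4 libraries compared. The range when leaving out 1 library was 0 to 20. At gd8.5 against virgin (0 called) it was 2 with DESeq2, 1 with no filter, and 0 to 4 without 1 library. At gd8.5 against gd6.5 (0 called) it was 11 with DESeq2, 9 with no filter and 13 with only the groups compared. For trNK-D against trNK-V (0 called) it was 3 with DESeq2 and 13 with no filter, and for trNK-T against trNK-V (6 called) it was 13 with DESeq2, 25 with no filter, 14 with only the groups compared, and 0 to 2 without 1 library. For iSTAT3 it was 2 with DESeq2 and 3 with no filter against IL-21, and 4 and 3 against no IL-21 (0 called in both). For IL-21 with only the groups compared it was 7 at 24 h (0 called) and 0 at 72 h (10 called), where 8 genes of the list were tested, and 21 with no filter and 7 to 16 without 1 library at 72 h. From 6 h to 24 h it was 1 with only the groups compared. From 24 h to 72 h it was 36 with no filter, 4 with only the groups compared and 15 to 24 without 1 library (21 called without IL-21). With IL-21 (13 called) it was 20 with DESeq2, 28 with no filter, 7 with only the groups compared and 9 to 19 without 1 library. The difference of IL-21 effects (6 called) gave 15 with no filter, 3 with only the groups compared and 4 to 13 without 1 library. With no filter 49 genes of the list were tested. Apart from such changes in which genes or libraries entered, the cause was not tested.
With the replicate number as a block, the calls at gd6.5 against virgin fell from 10 to 0 and those of trNK-T against trNK-V rose from 6 to 11; same-numbered libraries share only a number, and the block moved no other count by over 1.5 times.
The single-cell level of the list in dividing-like cells (5210.4 CPM) was 3562 in cells of fewer than 2500 UMIs, 5005 in cells of fewer than 2500 genes, 5689 at a clustering resolution of 0.4 and 5405 in cells of 8000 to 12000 UMIs, the last chosen after seeing the data. The other Eomes-high cells were at 1683, 1677, 2147 and 2159 in the same settings. In cells of fewer than 2500 UMIs the dividing-like class was a single cluster of 297 cells, with 10 of 10 dividing markers leading. Its first genes, Gm26917 and Gm23935, were also those of cluster 11 of the main setting, which was not called dividing-like. The mitosis list came to 4297 CPM in the cluster of 297 cells, which also had Mki67 among its 10 leading genes, and to 1297 CPM in cluster 11. Which kind of cells gave the value of 3562 was not tested.
With 2 libraries a group, and with 11861343 counts in the shallowest, genes under 10 RPKM such as Mcm10, Pole and Dna2 were not tested.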

Other observations

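The cultures of 72 h and of 3 days, made with different kits in different experiments, were not tested against each other, so values are given side by side. Rrm2 was at 81.5 and 53.9 RPKM after 3 days in the inhibitor culture without IL-21 and at 0.745 and 0 at 72 h of the time course without IL-21. For Mcm3 the values were 10.2 and 8.12 and 0.0653 and 0 RPKM, and for Tipin 95.5 and 54.5 and 46.5 and 35.5. Orc4 was at 10.2 and 13.4 and 30.9 and 22.02 RPKM. The inhibitor culture held 13993 and 15415 genes with a count in these libraries, and the time course 10724 and 11665.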
